A study of Mus musculus with 7 samples.

Results

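The circadian clock genes Arntl, Clock, Per1, Per2, Cry1, Cry2, Nr1d1, Nr1d2, Dbp and Bhlhe40 were taken by symbol from a TPM table of mouse embryonic fibroblasts (MEFs) under stress, and these 10 genes are 10 of the 49382 genes in the table. The mean level across libraries was 2 TPM or more for all 10, a filter that 12909 genes passed. Per2 passed it only through its level in oxidative stress, and the other 9 passed also without their highest library. TPM is a transcript level corrected for length and given as a share of its library, with a total of 1000000 in each. Cultures were wild type MEFs made from midgestation mouse embryos, used at passages 3 to 7, seeded at 10000 cells per cm2 and cultured overnight before treatment. The control was labelled only as control, with no time of collection. Oxidative stress was 10 µM sodium arsenite (NaAsO2) for 3 h and osmotic stress was 100 mM NaCl for 3 h. Glucose depletion, glutamine depletion, ER stress from 1 µM thapsigargin and hypoxia at 0.1% oxygen each lasted 10 h.

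Each condition was 1 library, so no difference could be set against the spread between cultures, no p-value is given, and a change is described only by its size. The 6 changes of a gene all share the 1 control library. A change is the difference in log2(TPM + 1) between a condition and the control, and rose or fell is written only where it passed 2-fold on that scale, which understates the change of low genes. Cells in culture carry clocks that serum or fresh medium can reset, and the libraries differed in treatment time, in medium and perhaps in the hour of collection. A shift in clock phase, a change in the strength of the rhythm and a direct response to the stress therefore cannot be told apart in these libraries. In bulk RNA, fewer cells expressing a gene and less of its RNA per cell cannot be told apart either.

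The mammalian clock is a feedback loop of transcription. ARNTL (BMAL1) and CLOCK form the activator, which binds E-boxes and switches on the genes for the PER and CRY proteins, and these enter the nucleus and block the activator. A further loop runs through NR1D1 and NR1D2 (REV-ERBα and REV-ERBβ), which are made under control of the activator and repress Arntl through ROR elements. DBP is an output factor that binds D-boxes, and BHLHE40 (DEC1) is a repressor that competes for E-boxes and also responds to hypoxia and serum. Fibroblasts are a classical model of this loop outside the brain.

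The promoter windows of Per1, Cry1, Cry2, Nr1d1 and Arntl are shown because they hold letter matches to elements through which the loop is known to close. These genes also moved in different ways in the comparisons that follow. RefSeq windows on GRCm38.p6, from 250 bases before to 50 bases after a start site and 300 bases long, were found for 8 of the 10 genes, in 12 windows. Per2 and Bhlhe40 were without a window. Capitals mark every match, on either strand, to an E-box (CACGTG), an E-box variant (CACGTT, which reads AACGTG from the other strand), a D-box (TTATGNAA) or a ROR element (TAGGTNA). No marked matches overlapped one another. The windows, written 5′ to 3′ on the strand of the gene, were as follows.
Per1, chr11:69098699-69098998, plus strand: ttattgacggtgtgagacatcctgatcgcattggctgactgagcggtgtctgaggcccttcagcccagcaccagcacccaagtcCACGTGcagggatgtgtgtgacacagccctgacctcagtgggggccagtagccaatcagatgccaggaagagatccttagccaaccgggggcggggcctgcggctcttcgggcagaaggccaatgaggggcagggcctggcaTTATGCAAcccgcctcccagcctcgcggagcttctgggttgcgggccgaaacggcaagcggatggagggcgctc
Cry1, chr10:85185005-85185304, minus strand: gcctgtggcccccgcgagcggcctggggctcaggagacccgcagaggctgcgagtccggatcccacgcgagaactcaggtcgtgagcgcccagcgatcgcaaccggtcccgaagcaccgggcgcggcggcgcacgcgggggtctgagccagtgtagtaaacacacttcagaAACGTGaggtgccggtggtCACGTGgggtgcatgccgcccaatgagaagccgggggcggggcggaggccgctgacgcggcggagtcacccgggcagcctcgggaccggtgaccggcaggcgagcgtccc
Cry2, chr2:92434020-92434319, minus strand: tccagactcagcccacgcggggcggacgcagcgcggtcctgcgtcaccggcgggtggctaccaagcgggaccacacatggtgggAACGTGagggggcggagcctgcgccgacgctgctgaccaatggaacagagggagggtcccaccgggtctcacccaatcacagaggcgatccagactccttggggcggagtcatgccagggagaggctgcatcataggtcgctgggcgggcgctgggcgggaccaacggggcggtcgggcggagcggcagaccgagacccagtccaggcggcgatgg
Nr1d1, chr11:98775328-98775627, minus strand: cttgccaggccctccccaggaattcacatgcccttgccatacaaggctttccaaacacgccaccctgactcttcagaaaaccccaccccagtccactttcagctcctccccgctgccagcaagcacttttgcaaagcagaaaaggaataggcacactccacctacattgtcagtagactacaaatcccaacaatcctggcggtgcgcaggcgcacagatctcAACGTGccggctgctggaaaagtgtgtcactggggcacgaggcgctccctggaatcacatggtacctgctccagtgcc
Arntl, chr7:113207261-113207560, plus strand: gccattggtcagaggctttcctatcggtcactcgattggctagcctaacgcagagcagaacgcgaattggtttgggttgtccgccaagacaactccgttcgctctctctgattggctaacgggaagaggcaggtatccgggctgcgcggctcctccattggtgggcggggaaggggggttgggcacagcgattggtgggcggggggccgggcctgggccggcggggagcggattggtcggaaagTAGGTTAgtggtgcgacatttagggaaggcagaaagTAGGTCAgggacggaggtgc

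The E-box CACGTG was present in 7.15% of all 32851 windows in the table, the variant in 4.68%, the D-box in 3.38% and the ROR element in 8.29%. In the window shown, Per1 held an E-box at -166 and the D-box TTATGCAA at -24, counted from the start site to the first base of the match. A second Per1 window, chr11:69099902-69100201, held none of the 4 patterns. Cry1 held an E-box at -60 and the variant at -79, Cry2 held the variant at -166, and Nr1d1 held it at -28. In the Arntl window shown, TAGGTTA lay at -6 and TAGGTCA at 31. The windows of Clock, Nr1d2 and Dbp held none of the 4 patterns, which says only that these letters are not in those 300 bases. A match describes the sequence and is not evidence that a factor binds there.

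The cells matched their label by markers. The summed level of 8 fibroblast genes, among them Col1a1 and Vim, was between 6160 and 12781 TPM, with the lowest sum in ER stress. Marker sums of other cell types were 7.92 to 17.9 TPM for 8 leukocyte genes, 3.87 to 11.6 TPM for 4 epithelial genes and 2.14 to 5.37 TPM for 3 endothelial genes. The leukocyte genes Ptprc and Adgre1, the epithelial genes Epcam and Cdh1 and the endothelial gene Cdh5 were under 1 TPM in all 7 libraries. Each of these lists also held 1 gene that passed the filter. These were Cd68 (5.26 to 9.77 TPM), Krt18 (3.57 to 10.6 TPM) and Kdr (1.92 to 4.23 TPM). Of 12 known response genes, 2 for each treatment, 12 passed 2-fold in the known direction in their own condition, such as Hmox1 in oxidative stress and Bnip3 in hypoxia. They were chosen with earlier results of these data known, so this count is not an independent check. Some moved further elsewhere. Txnip fell more in osmotic stress (-3.12) than in glucose depletion (-2.07). Chac1 and Atf3 rose more in ER stress (3.05 and 4.81) than in glutamine depletion (1.69 and 2.47). The other response genes moved furthest in the known direction in their own condition.

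Among the 10 clock genes, 7 passed 2-fold against the control in at least 1 condition, and Clock, Per1 and Nr1d2 did so in none. Of all 12909 tested genes, 34.4% did so in at least 1 condition, and with 10 chosen genes, 1 of which was tested only because of its change, nothing is read from the difference. Of the 60 pairs of gene and condition, 7 were higher and 3 lower by more than 2-fold, and 50 stayed within. ER stress held 4 of these, with Cry1 and Arntl up and Nr1d1 and Dbp down, and glucose depletion held none. In no condition did all 10 changes have the same sign, and glutamine depletion came closest, with 8 above 0 and 2 below. Calls in both directions occurred only in osmotic and ER stress, the 2 conditions with falls.

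**Figure D1:**
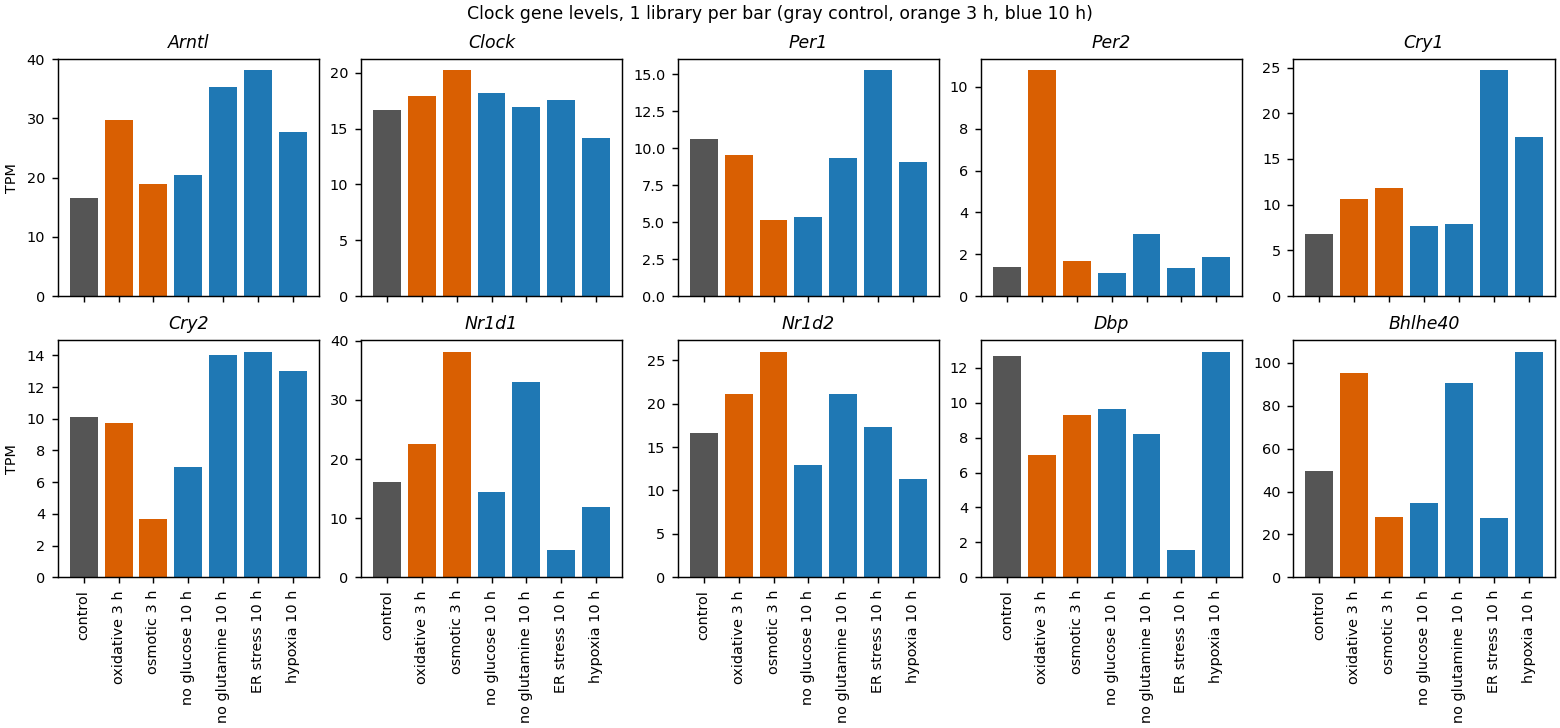
Level of each clock gene in TPM (y axis, from 0, a separate scale per gene) in each of the 7 libraries (x axis), 1 bar per library, with the control in gray, 3 h treatments in orange and 10 h treatments in blue. Per2 stands at 10.8 TPM in oxidative stress and at most 2.96 TPM elsewhere, and Clock stays between 14.2 and 20.2 TPM.

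Each count of clock genes was read beside the share of all 12909 tested genes that passed the same threshold in the same direction. In oxidative stress 1 clock gene rose and 0 fell, beside 3.94% of tested genes up and 4.85% down. That gene was Per2, which passed the filter only through this library, so nothing is read from setting it beside that share. In osmotic stress 1 rose and 1 fell, beside 3.08% up and 8.76% down. In glucose depletion 0 rose and 0 fell, beside 1.83% up and 2.41% down. With 10 genes, 1 call is already a share of 10%, so counts this small could not be ranked against these backgrounds. In glutamine depletion 1 rose and 0 fell, beside 3.21% up and 3.21% down. In ER stress 2 rose and 2 fell, beside 8.60% up and 11.0% down, the largest background of the 6 conditions. In hypoxia 2 rose and 0 fell, beside 3.57% up and 2.64% down.

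The median change over the 10 clock genes was 0.39 in oxidative stress and 0.38 in glutamine depletion, where the medians over all tested genes were -0.16 and -0.09. It was 0.17 in osmotic stress, 0.14 in hypoxia and 0.06 in ER stress, with medians over all tested genes of -0.12, -0.05 and 0.00. In glucose depletion it was -0.27, against -0.02 over all tested genes. The oxidative and osmotic libraries were thus shifted by more than 0.1 over all genes, and relative to that shift Per2 stood at 2.45 and Bhlhe40 at 1.08 in oxidative stress, and Nr1d1 at 1.32 and Cry2 at -1.13 in osmotic stress. Subtracting the shift also moved the share of risers among all calls in oxidative stress from 44.8% to 59.7%, with 4.75% of tested genes then up and 3.20% down.

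**Figure D2:**
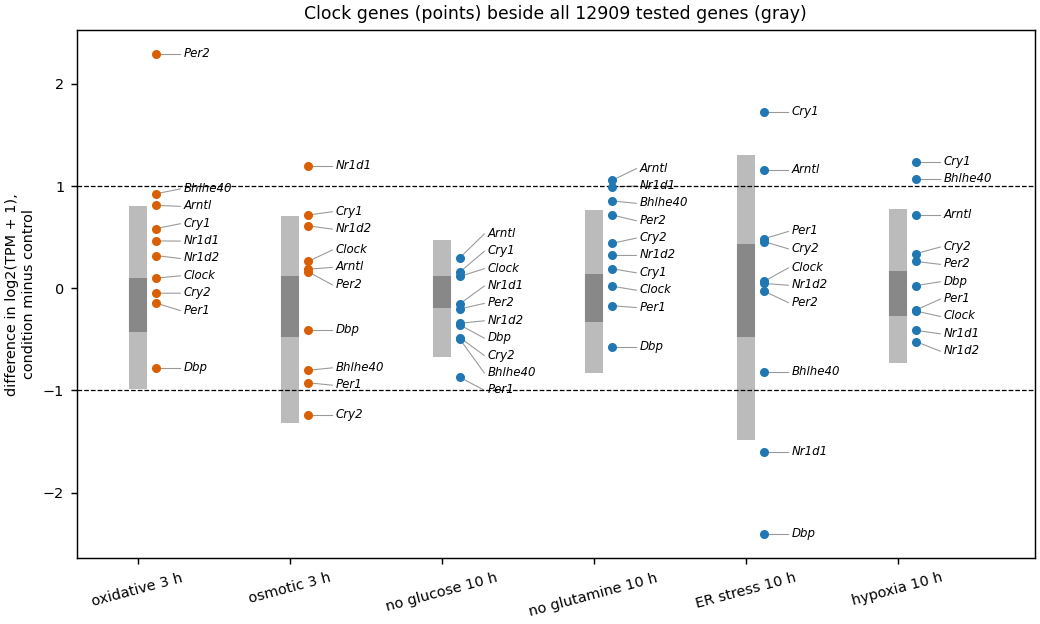
Difference in log2(TPM + 1) between each condition and the control (y axis) for the 10 clock genes (points, orange for 3 h and blue for 10 h) beside all tested genes, whose central 50% (dark gray) and 90% (light gray) are shown for each condition on the x axis, with dashed lines at 2-fold. Per2 in oxidative stress and Dbp and Nr1d1 in ER stress are among the points beyond the light gray range, and all 10 clock genes in glucose depletion lie between the dashed lines.

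Arntl, the gene of the activator subunit whose RNA cycles, was 16.5 TPM in the control, 29.7 in oxidative stress, 18.9 in osmotic stress, 20.5 in glucose depletion, 35.3 in glutamine depletion, 38.1 in ER stress and 27.8 TPM in hypoxia. The control was the lowest of the 7 libraries, as for 3.85% of tested genes, and this held without mitochondrially encoded genes. A pseudocount cannot change that order, and centring could not lower the changes, since no median over all tested genes was positive. Arntl rose in glutamine depletion (log2 change 1.05) and in ER stress (1.16), while the changes in oxidative stress (0.81) and hypoxia (0.72) stayed within 2-fold. In glutamine depletion 379 of the tested genes rose more, and in ER stress 818 did. Clock, which encodes the partner of ARNTL, was the steadiest of the 10 genes. Its levels were 16.7 TPM in the control, 18.0 in oxidative stress, 20.2 in osmotic stress, 18.2 in glucose depletion, 16.9 in glutamine depletion, 17.5 in ER stress and 14.2 TPM in hypoxia, so that the highest was 1.43 times the lowest. The ratio of Clock to Arntl TPM within a library ran from 0.460 in ER stress to 1.07 in osmotic stress, and was 1.01 in the control.

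Per1 and Per2 encode the PER repressors, and both are known as early targets of the signals that reset the clock. Per2 was 1.41 TPM in the control, 10.8 in oxidative stress, 1.70 in osmotic stress, 1.10 in glucose depletion, 2.96 in glutamine depletion, 1.37 in ER stress and 1.89 TPM in hypoxia. The oxidative library stood far above the other 6, at 7.65 times the control in plain TPM and by 2.29 on the log2 scale. The other 6 libraries averaged 1.74 TPM and 5 of them were under 2 TPM, so Per2 counted as tested only through the library in which it rose, and its rank among tested genes is not given. Per1 did not share this pattern. It was 10.6 TPM in the control, 9.51 in oxidative stress, 5.12 in osmotic stress, 5.35 in glucose depletion, 9.32 in glutamine depletion, 15.3 in ER stress and 9.03 TPM in hypoxia. Its changes reached -0.93 in osmotic stress and -0.87 in glucose depletion, none past 2-fold, and only ER stress was above the control (0.48). After centring, oxidative stress moved from -0.15 to 0.01 and so changed sign. The ratio of Per2 to Per1 was 0.133 in control cells, reached 1.13 with arsenite and 0.0895 with thapsigargin, and lay between 0.205 and 0.332 in the other 4 libraries. Per2 exceeded Per1 in the oxidative library and in no other.

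Cry1 and Cry2 encode the cryptochromes, the stronger repressors of the activator, and the paralogs had their calls in different conditions. Cry1 was 6.79 TPM in the control, 10.7 in oxidative stress, 11.8 in osmotic stress, 7.70 in glucose depletion, 7.89 in glutamine depletion, 24.7 in ER stress and 17.4 TPM in hypoxia. Its control was again the lowest of the 7 libraries, also after the removal of mitochondrially encoded genes. Cry1 rose in ER stress (log2 change 1.72, with 391 tested genes above it) and in hypoxia (1.24, with 371 above it). Cry2 was 10.1 TPM in the control, 9.73 in oxidative stress, 3.68 in osmotic stress, 6.94 in glucose depletion, 14.0 in glutamine depletion, 14.2 in ER stress and 13.0 TPM in hypoxia. It fell in osmotic stress (-1.25) and its other changes lay between -0.48 and 0.46. Its value of -0.05 in oxidative stress became 0.11 after centring. The ratio of Cry2 to Cry1 was 1.49 in the control, 0.312 in osmotic stress, 0.577 in ER stress and 0.750 in hypoxia, and it was highest in glutamine depletion at 1.78. Cry2 outweighed Cry1 in the control and glutamine depletion, and Cry1 outweighed Cry2 in the other 5 libraries.

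Nr1d1 and Nr1d2 encode the nuclear receptors that repress Arntl. Nr1d1 was 16.1 TPM in the control, 22.6 in oxidative stress, 38.2 in osmotic stress, 14.38 in glucose depletion, 33.0 in glutamine depletion, 4.63 in ER stress and 11.8 TPM in hypoxia. It rose in osmotic stress (1.20), fell in ER stress (-1.60), and in glutamine depletion it lay just within the threshold (0.99), although its plain TPM there was 2.05 times the control. Nr1d1 was the only one of the 10 genes with both a rise and a fall. Nr1d2 was 16.7 TPM in the control, 21.1 in oxidative stress, 26.0 in osmotic stress, 12.9 in glucose depletion, 21.1 in glutamine depletion, 17.3 in ER stress and 11.3 TPM in hypoxia. None of its changes passed 2-fold, with 0.61 in osmotic stress as the highest and -0.52 in hypoxia as the lowest. The ratio of Nr1d1 to Nr1d2 lay between 0.965 and 1.56 in 6 libraries and was 0.268 in ER stress. The ratio of Nr1d1 to Arntl, the repressor gene over its known target, was 0.976 in the control, 2.02 in osmotic stress and 0.122 in ER stress.

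Dbp, an output gene whose RNA swings widely in many tissues, was 12.7 TPM in the control, 6.98 in oxidative stress, 9.31 in osmotic stress, 9.66 in glucose depletion, 8.20 in glutamine depletion, 1.58 in ER stress and 12.9 TPM in hypoxia. It fell in ER stress to 0.125 times the control in plain TPM (-2.41 on the log2 scale), and 232 tested genes fell more. The next largest change, in oxidative stress, was -0.78. Dbp shares 539 of its 2993 exon bases in GENCODE M21 with Sphk2, a sphingosine kinase gene on the opposite strand, and Nr1d1 shares 263 of 3077 with the thyroid receptor gene Thra. The libraries kept strand, but Kallisto at default settings does not use it, so reads over the shared bases could be credited to either gene. Sphk2 was 17.6 TPM in the control and 52.3 in ER stress, where Dbp was 1.58, and Thra was 47.6 and 24.4 TPM. The part of the overlap in these values was not tested. The other overlaps, of Cry2 with D930015M05Rik, of Bhlhe40 with 0610040F04Rik and of Arntl with Gm45355, were with genes at or below 0.354 TPM.

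Bhlhe40, which encodes a repressor at E-boxes, was the most abundant of the 10 genes in 5 of the 7 libraries. It was 49.7 TPM in the control, 95.3 in oxidative stress, 28.1 in osmotic stress, 34.9 in glucose depletion, 90.7 in glutamine depletion, 27.8 in ER stress and 105 TPM in hypoxia. Oxidative stress, glutamine depletion and hypoxia formed a high set of 3 libraries, and osmotic stress, glucose depletion and ER stress lay below the control. Only the rise in hypoxia passed 2-fold (1.07). The other values were 0.92 in oxidative stress, 0.85 in glutamine depletion, -0.50 in glucose depletion, -0.80 in osmotic stress and -0.82 in ER stress.

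**Figure D3:**
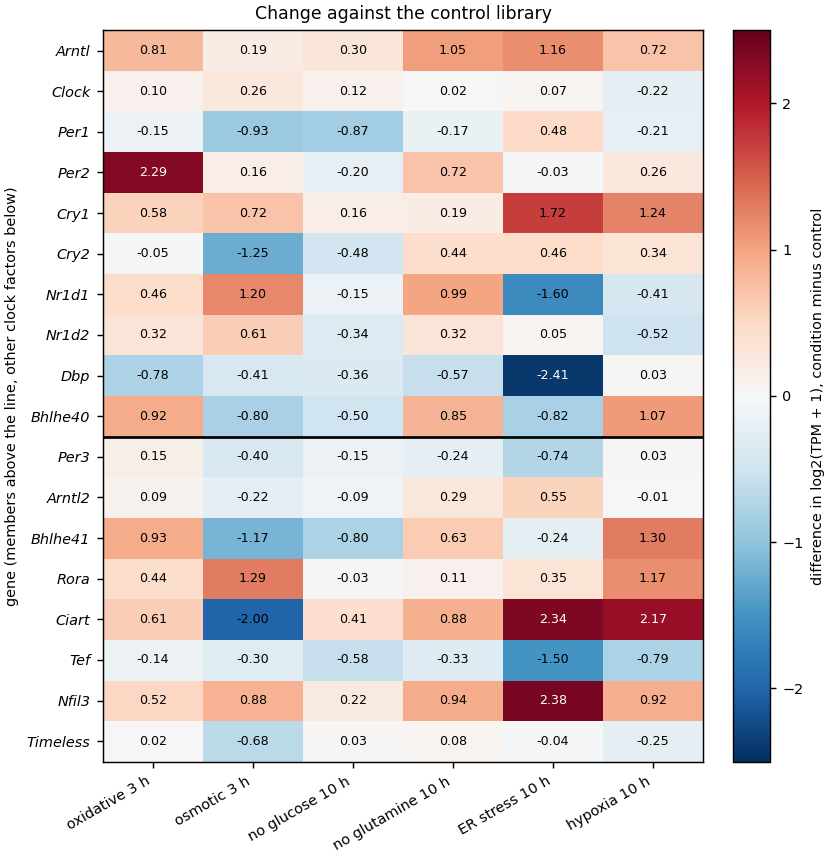
Heatmap of the difference in log2(TPM + 1) between each condition (columns) and the control for the 10 clock genes (above the line) and 8 other clock factors that passed the filter (below it), with the value in each cell, red for higher and blue for lower than the control. The ER stress column holds both the lowest value of a member (Dbp, -2.41) and rises of Cry1, Ciart and Nfil3, while the glucose depletion column has no value past 2-fold.

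The order of the 10 genes by TPM shows which of them carried the most RNA in a library. In the control Bhlhe40 was followed by Clock, Nr1d2, Arntl and Nr1d1, which lay within 16.1 to 16.7 TPM and have no meaningful order among themselves without replicates. Per2 was last in 6 libraries, and in oxidative stress it was 6th and Dbp last. Nr1d1 was first in osmotic stress and 8th in ER stress, where Arntl was first.

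Since treatment lasted 3 h in 2 conditions and 10 h in 4, levels were set side by side by duration. The range of the 3 h libraries overlapped that of the 10 h libraries for all 10 genes. Among all tested genes, 17.0% had ranges that did not overlap, so that overlap was the common case. The control lay within the 10 h range for 8 genes, the exceptions being Arntl and Cry1, and within the 3 h range for 1, Bhlhe40. A range over 4 libraries is more likely to hold the control than a range over 2. The shares over all tested genes were not taken, so nothing is read from these 2 counts. For Nr1d2 the 3 h libraries were 21.1 and 26.0 TPM and the 10 h libraries ran from 11.3 to 21.1 TPM, an overlap by a narrow margin. Per2 ran from 1.70 to 10.8 TPM at 3 h and from 1.10 to 2.96 TPM at 10 h.

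Libraries of equal treatment time were then compared with each other, which leaves the control and its unknown time of collection out. Oxidative stress minus osmotic stress, both at 3 h, gave 3 of 10 clock genes higher and 0 lower by more than 2-fold, beside 7.86% of tested genes higher and 3.90% lower. Per2 differed by 2.13, Bhlhe40 by 1.73 (95.3 against 28.1 TPM) and Cry2 by 1.20 (9.73 against 3.68 TPM). Per2 passed the filter only through the oxidative library, so nothing is read from setting its call beside these shares. Nr1d1 differed the other way by -0.73, within the threshold. The 2 libraries of 3 h were thus far apart in Per2, Bhlhe40 and Cry2 at an equal treatment time.

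Among the 10 h conditions, glucose depletion, the library with the smallest background against the control, served as the reference. Glutamine depletion minus glucose depletion, a pair in which both media were changed, gave 2 genes higher and 0 lower, beside 3.12% and 2.37% of tested genes. These were Bhlhe40 (1.35, 90.7 against 34.9 TPM) and Nr1d1 (1.14, 33.0 against 14.38 TPM). The median over the 10 clock genes was 0.73 in this comparison, against -0.04 over all tested genes, and 8 of the 10 were higher without glutamine than without glucose. Clock (-0.10) and Dbp (-0.21) were the 2 with values below 0.

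ER stress minus glucose depletion gave 2 genes higher and 2 lower, beside 9.02% and 9.71% of tested genes. Cry1 was higher by 1.56 and Per1 by 1.36, at 15.3 against 5.35 TPM. Dbp was lower, with a difference of -2.05, and so was Nr1d1, with -1.45. Per1, within 2-fold of the control in ER stress, passed the threshold here, where the reference was 5.35 TPM and not the 10.6 TPM of the control. Hypoxia minus glucose depletion gave 2 genes higher and 0 lower, beside 4.19% and 2.77% of tested genes, namely Bhlhe40 (1.57) and Cry1 (1.08). Arntl, past 2-fold against the control in glutamine depletion and ER stress, differed from glucose depletion by 0.76 and 0.86 there, both within the threshold.

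**Figure D4:**
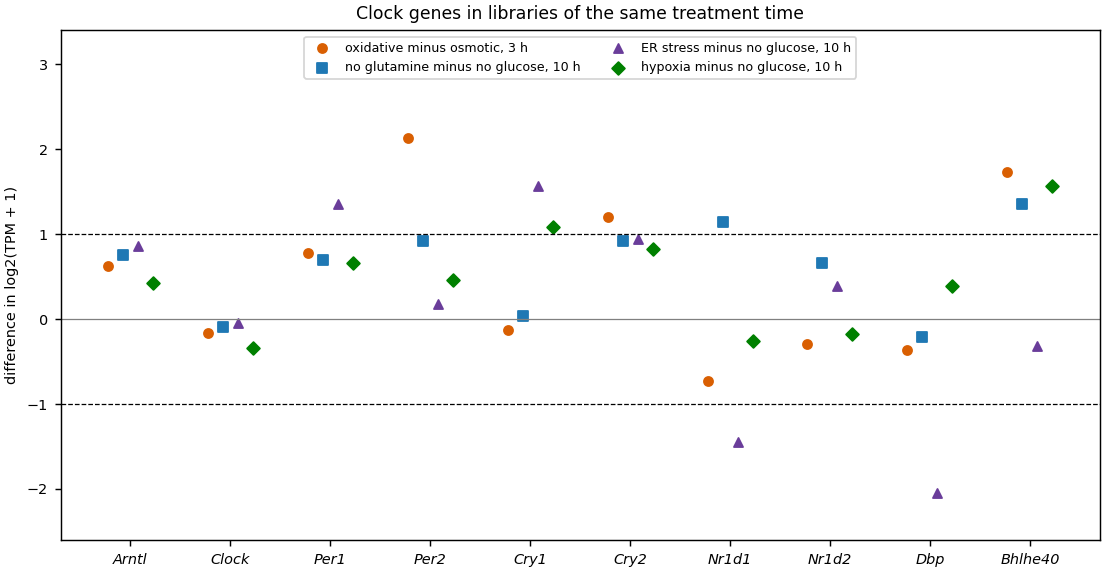
Difference in log2(TPM + 1) (y axis) for each of the 10 clock genes (x axis) between libraries of equal treatment time: oxidative minus osmotic stress at 3 h (orange circles), and glutamine depletion (blue squares), ER stress (purple triangles) and hypoxia (green diamonds) each minus glucose depletion at 10 h, with dashed lines at 2-fold. Clock stays near 0 in all 4 comparisons, and Bhlhe40 is past 2-fold in 3 of them.

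Ratios of genes to Arntl within a library do not depend on the control. Per1 to Arntl was 0.644 in the control and lay between 0.261 and 0.400 in the 6 stress libraries. Dbp to Arntl was 0.769 in the control, 0.0414 in ER stress and between 0.232 and 0.493 in the other 5. For both ratios the control was the highest of the 7 libraries. Arntl, the denominator of these ratios, was itself lowest in the control (16.5 TPM) and highest in ER stress (38.1 TPM). The ratios thus partly restate the level of Arntl. Per2 to Arntl was 0.0856 in control cells, 0.363 with arsenite and 0.0358 with thapsigargin. In the thapsigargin library Clock, Nr1d1, Dbp and Per2 each had their lowest ratio to Arntl, and Per1 had its second highest.

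**Figure D5:**
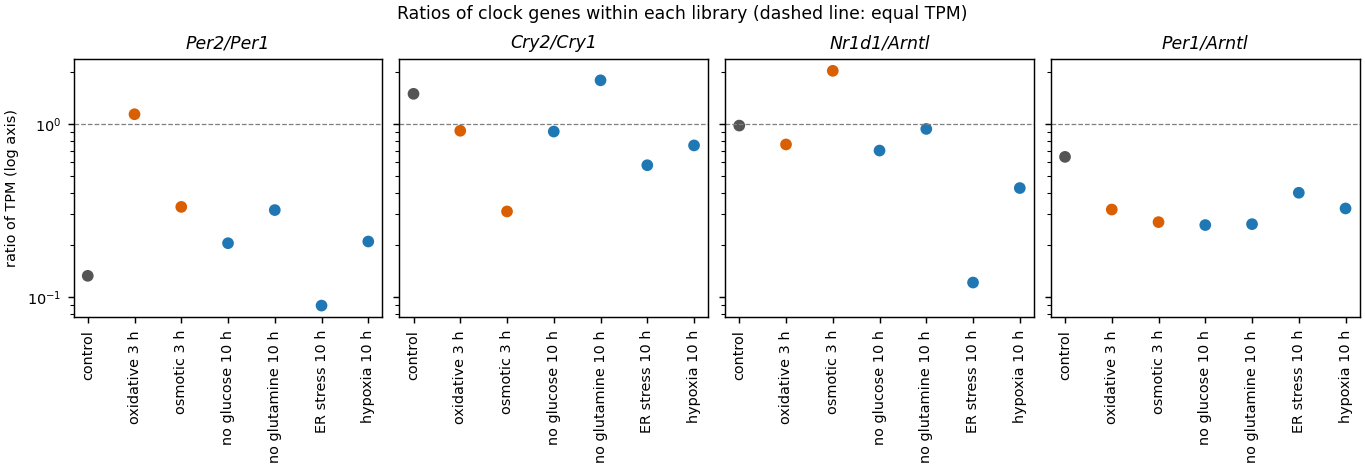
Ratio of the TPM of paired clock genes within each library (log axis, dashed line at equal TPM), 1 point per library, with the control in gray, 3 h in orange and 10 h in blue. Per2/Per1 passes 1 in oxidative stress, Nr1d1/Arntl is lowest in ER stress at 0.122, and Per1/Arntl is highest in the control at 0.644.

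Of 12 other clock factors, 8 passed the filter. Of these, 2 rose and 1 fell in ER stress, beside 8.60% of tested genes up and 11.0% down. Osmotic stress had 1 up and 2 down, beside 3.08% and 8.76%. In ER stress Ciart, a repressor of the activator, rose from 4.56 to 27.2 TPM (2.34), Nfil3, which represses at D-boxes against DBP, rose from 19.1 to 103 TPM (2.38), and Tef, an activator related to DBP, fell from 32.4 to 10.8 TPM (-1.50). Thus both D-box activators with a call fell and the D-box repressor rose in that library. In hypoxia 3 factors rose and 0 fell, beside 3.57% of tested genes up and 2.64% down. Ciart reached 24.0 TPM (2.17), and Bhlhe41, the paralog of Bhlhe40, rose from 7.99 to 21.1 TPM (1.30). Rora, which activates Arntl through ROR elements, rose from 5.50 to 13.6 TPM (1.17). In osmotic stress Rora rose to 14.9 TPM (1.29), and Ciart and Bhlhe41 fell to 0.392 TPM (-2.0) and 3.01 TPM (-1.17). No factor passed 2-fold in oxidative stress, glucose depletion or glutamine depletion. With only 8 factors tested, nothing is read from the number of calls. Among these factors with a call, the RefSeq window of Ciart held 3 E-boxes, both windows of Tef 1 each, that of Bhlhe41 1, and that of Nfil3 held 1 ROR element, while that of Rora held none of the 4 patterns. Genes with E-boxes thus included both Ciart, which rose in ER stress, and Tef, which fell there.

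Further lists covered enzymes, cofactors and outputs of the clock. Of 12 enzymes that modify clock proteins 11 passed the filter, and past 2-fold were Siah2, a ubiquitin ligase gene, up in ER stress (10.8 to 48.6 TPM, 2.07), and Usp2, a deubiquitinase gene, down in osmotic stress (6.67 to 2.40 TPM, -1.17). The casein kinase genes Csnk1d and Csnk1e, whose products mark PER proteins for decay, stayed within 2-fold throughout. All 9 cofactors passed the filter and 0 passed 2-fold in any condition. Of 7 output genes tested, Klf9 rose (1.05) and Klf10 fell (-1.38) in osmotic stress, and Nampt, an enzyme gene of NAD synthesis, rose in hypoxia from 30.7 to 89.2 TPM (1.51). Of all tested genes 34.4% passed 2-fold in at least 1 condition, and with lists this short nothing is read from the number of calls.

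Inputs known to reset fibroblast clocks were read from fixed lists. The list of the CREB and SRF pathways, through which serum and cAMP reach Per1 and Per2, held 7 immediate early genes. Of these, 4 rose and 0 fell in oxidative stress, beside 3.94% of tested genes up and 4.85% down. They were Fosb (1.94), Nr4a1 (1.37), Ier2 (1.22) and Egr1 (1.17). Glutamine depletion also had 4 up and 0 down, beside 3.21% and 3.21%. These were Nr4a1 (1.79), Egr1 (1.58), Fosb (1.47) and Ier2 (1.40). Per2 was 2.96 TPM in glutamine depletion against 10.8 TPM in oxidative stress. In osmotic stress Fosb rose (1.86) and Sik1 fell (-1.29), in ER stress Ier2 rose (1.11) and Nr4a1 fell (-2.14), and in glucose depletion and hypoxia 0 passed 2-fold. The shares of tested genes in these conditions were those given above. The part of the immediate early genes in the levels of Per1 and Per2 was not tested.

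Of 6 glucocorticoid responsive genes, 5 passed the filter and Zbtb16 was listed at 0 in every library. Mt2, a metallothionein gene, rose in oxidative stress (2.98), ER stress (1.41) and hypoxia (1.96). In osmotic stress Klf9 (1.05) and Sgk1 (1.00) rose and Fkbp5 fell (-1.05), and in ER stress Fkbp5 (-1.15) and Sgk1 (-1.34) fell. Glucose and glutamine depletion held no call, so the list did not move as 1 group. Of 6 relatives of the bHLH-PAS family, to which ARNTL and CLOCK belong, 5 passed the filter. Ahr, the aryl hydrocarbon receptor gene, fell in oxidative (-1.23) and osmotic stress (-1.58), and no other call was made. Of all tested genes 34.4% passed 2-fold in at least 1 condition, so nothing is read from the number of calls in these short lists.

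The genes whose log2(TPM + 1) over the 7 libraries ran most like each clock gene with a call were taken by Pearson r from 3446 genes that averaged 10 TPM or more and had a range of at least 1 log2 unit. The points share the same libraries and scaling and are few, so r is a description. Values without 1 library were added after seeing the data. For Dbp these were St3gal2 (r = 0.995), Lmo7 (0.994) and Pde8b (0.994), and without the ER stress library, where Dbp stood apart, r was 0.966, 0.956 and 0.990. For Nr1d1 they were Sgk1 (0.985), Chp1 (0.975) and Furin (0.966), which stayed between 0.931 and 0.962 without that library. Cry2 ran like Ulk3 (0.980), Zfp787 (0.979) and Txnip (0.964), and Cry1 like Shb (0.973), Msi2 (0.944) and Tmem135 (0.944). Arntl ran like Mex3b (0.969), Smox (0.963) and Fbrs (0.939), and Bhlhe40 like Tle3 (0.960), Map3k4 (0.950) and Prkab2 (0.944). For Per2 the genes were Rhou (0.949), Dusp10 (0.935) and Vps37b (0.932), and without the oxidative library r was 0.532, 0.951 and 0.377, so that Rhou and Vps37b rested on that library. None of these genes is another of the 10 clock genes, and nothing is read from that. Per1, Per2 and Dbp averaged under 10 TPM and Clock had a range under 1 log2 unit, so they could not be listed.

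The clock genes lie on 8 chromosomes of GRCm38, and all 10 are protein coding in GENCODE M21. Per1 (chr11:69095217-69109960, plus strand) and Nr1d1 (chr11:98767932-98775333, minus strand) share a chromosome, as do Arntl (chr7:113207465-113314126, plus) and Dbp (chr7:45705088-45710203, plus). Per2 lies at chr1:91415982-91459324 (minus), Cry1 at chr10:85131700-85185064 (minus), Cry2 at chr2:92403646-92434043 (minus) and Clock at chr5:76209868-76304792 (minus). Nr1d2 lies at chr14:18204054-18239127 (minus) and Bhlhe40 at chr6:108660629-108666925 (plus). Genes on 1 chromosome did not share a pattern: in osmotic stress Nr1d1 rose while Per1 was at -0.93, and in ER stress Arntl rose while Dbp fell.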

How the data were processed

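RNA of 7 cultures of mouse embryonic fibroblasts, 1 per condition, was sequenced as stranded, paired-end libraries. Per the study's methods and the submitters' processing notes, the authors aligned reads with Kallisto 0.43.1 at default settings to the GRCm38 cDNA transcripts of Ensembl release 90, and the deposited values are TPM added up per gene. TPM keeps no read count, so depth is unknown and no counting interval can be given. Columns were mapped to samples by their labels.

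Changes were taken from the deposited TPM as log2(TPM + 1) of a condition minus that of the control. The pseudocount of 1 TPM and the 2-fold threshold are those of the study. Tested genes averaged 2 TPM or more. Without replicates no statistical test was run. Named genes were the 10 clock genes, the listed genes of the clock pathway and its inputs with a call, and the 3 genes most like each clock gene with a call. The members and lists were chosen with earlier results of these data known. Locations came from GENCODE M21 and promoter windows from RefSeq, both on GRCm38. Shares of tested genes over all conditions, by duration and with the control lowest, and the filter without the highest library, were added after seeing the data. The fold-change step was tested on simulated libraries, with changes planted well past 2-fold and outside the low genes. That test does not cover calls near 2-fold, low genes or the spread between cultures. Software was matplotlib 3.10.9, pandas 2.3.3, numpy 2.4.6 and Python 3.11.15.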

Additional observations from a re-analysis of the deposited data

How the results depend on the processing

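The alternatives were pseudocounts of 0.1 and 5 TPM, centring on the median of all tested genes, removal of mitochondrially encoded genes, a reference of equal treatment time, other thresholds and other filters. Pseudocounts, thresholds and filters cannot reverse a call. The medians used for centring reached only -0.16, too little to reverse one. Under removal of mitochondrially encoded genes and a reference of equal treatment time, which could, no call reversed its direction. Some changes within 2-fold did change sign. With a reference of equal treatment time 14 of them did so, such as Per2 in osmotic stress (0.16 to -2.13, against oxidative stress). The 2 conditions of 3 h served as the reference of each other. A gene changed the same way in both thus had to change sign in 1 of them, and the 14 do not measure stability. Centring changed the sign of 2. No paired analysis was possible because each condition was 1 library with no replicate number shared, and no library could be left out of a group. Counts of clock genes past the threshold moved as follows. With a pseudocount of 0.1 TPM, osmotic falls were 2 and glutamine depletion rises 3. With 5 TPM, osmotic falls were 0, glutamine depletion rises 0 and hypoxia rises 1. Centring gave 2 rises in oxidative stress and 2 in glutamine depletion, and removal of mitochondrially encoded genes gave 2 in glutamine depletion. With a reference of equal treatment time, which is another stress library and not the control, oxidative rises were 3 and glutamine depletion rises 2. Osmotic rises were 0 and osmotic falls 3, which is the same 3 h difference read the other way. At 1.5-fold there were 3 rises and 1 fall in oxidative stress, 3 rises and 3 falls in osmotic stress, 1 fall in glucose depletion, 4 rises in glutamine depletion, 3 falls in ER stress and 3 rises in hypoxia. At 3-fold, osmotic rises and falls, glutamine depletion rises and hypoxia rises were each 0, and ER stress rises were 1. Requiring a mean of at least 10 TPM left 0 rises in oxidative stress, without Per2, and 1 fall in ER stress, without Dbp. Dropping the filter could change no count, since all 10 genes passed it. Single calls lost with 5 TPM were those of Cry2 in osmotic stress (-0.80), Arntl in glutamine depletion (0.91) and Cry1 in hypoxia (0.92). Calls lost with a reference of equal treatment time were those of Nr1d1 in osmotic stress (0.73) and Arntl in glutamine depletion (0.76) and ER stress (0.86). With 0.1 TPM, Per1 in osmotic stress (-1.04) and Per2 (1.02) and Nr1d1 (1.03) in glutamine depletion passed 2-fold. The share of tested genes past 2-fold in either direction, 4.24% in glucose depletion and 19.6% in ER stress, the lowest and highest of the 6 conditions, was 2.45% and 7.20% with no filter, 1.79% and 17.1% at 10 TPM or more, and 1.89% and 17.7% without predicted genes. Calls this near the threshold rest on 1 library each, and the unknown depth limits low values such as those of Per2, under 3 TPM in 6 libraries, and of Dbp in ER stress, at 1.58 TPM.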
